A study of Mus musculus with 8 samples.

Results

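The S100 proteins are small calcium-binding proteins, and 8 of their genes were followed here, chosen by symbol among the 23293 mouse genes of the deposited expression table: S100a8, S100a9, S100a4, S100a6, S100a10, S100a11, S100a1 and S100a13. A further 9 S100 genes have a row in the table and lie at or near 0. Messenger RNA was sequenced in bone marrow cells of individual mice selected on magnetic beads for c-Kit, the surface receptor of blood stem and progenitor cells. There were 8 libraries in 4 groups of 2, and each library is 1 mouse, so the spread is between animals. In all mice the cells were taken 4 weeks after injection of PIpC, which switches on the interferon-inducible Mx1-cre recombinase. The combined mice carried Mx1-cre, a floxed Smc3 allele and Flt3-ITD, an activating duplication within the Flt3 receptor kinase. The Flt3-ITD mice carried Mx1-cre and Flt3-ITD. The Smc3 del/+ mice carried Mx1-cre and 1 floxed allele of Smc3, a core subunit of the cohesin ring. The controls were Smc3 fl/+ without Mx1-cre. The labels give no age, sex or number of Flt3-ITD alleles, and name the combined mice as fl/del for Smc3 in the genotype and as het in the title.

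S100 proteins work mostly as dimers that change shape when they bind calcium and then grip a partner inside the cell, such as an annexin or a myosin. S100a8 and S100a9 pair as calprotectin, among the most abundant proteins in the cytoplasm of neutrophils, which is also released and acts on Toll-like receptor 4 and the receptor Ager. In the marrow both genes are switched on as granulocytes mature beyond the progenitor stage. S100a4, S100a6, S100a10 and S100a11 are made in many cell types and are tied to movement, membrane repair and the binding of annexins. S100a1 is known chiefly from heart muscle, and S100a13 for its part in the export of signalling proteins that have no signal peptide.

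The libraries held from 10490 to 10843 mouse genes at 1 FPKM or more. FPKM divide fragment numbers by the length of the transcript and the mapped total of the library, so levels of different genes are set side by side here per length. Depth in reads is unknown. Low values put it at 0.711 to 1.02 of control replicate 1, an uncertain estimate that for combined replicate 2, the lowest, rests on 12 of 216 low genes. Kit, the gene used for selection, stood at 38.7 ± 1.86 FPKM in combined, 52.9 ± 6.71 in Flt3-ITD, 49.2 ± 0.469 in Smc3 del/+ and 57.5 ± 3.74 in control libraries (SD, n = 2 each). Smc3 was not lower in the libraries labelled as deleted: its FPKM averaged 119 ± 23.3 in combined against 92.3 ± 3.35 in Flt3-ITD mice, and 134 ± 1.86 in Smc3 del/+ against 115 ± 4.64 in control mice (SD, n = 2 each). Values over the whole gene need not show a deletion of part of it, and the groups are called by their labels throughout. Flt3 stood at 11.1 ± 4.52, 4.50 ± 1.22, 4.84 ± 0.145 and 5.51 ± 0.423 FPKM in combined, Flt3-ITD, Smc3 del/+ and control libraries (SD, n = 2 each). Xist, which female cells transcribe, was at 499.8 to 596 FPKM in combined and 617 to 657 FPKM in control libraries, and at 0.936 FPKM or lower in all 4 Flt3-ITD and Smc3 del/+ libraries. Sex therefore differs with genotype in the comparisons of Flt3-ITD with control, of Smc3 del/+ with control and of combined with Flt3-ITD. The test of whether the Smc3 deletion acts differently on the 2 backgrounds sets combined and control against Flt3-ITD and Smc3 del/+ libraries, which is also the contrast of high with low Xist. In all of these, sex cannot be told apart from genotype. The combined and control libraries have the same Xist pattern, and the comparison of all 4 Flt3-ITD carriers with the other 4 libraries holds both patterns on each side. Mx1-cre was absent from controls alone, so its presence cannot be told apart from genotype in the comparisons with control. The controls also enter the test of the 2 backgrounds and are 2 of the 4 libraries without Flt3-ITD. Mx1-cre is thus not balanced in these either.

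S100a8 and S100a9 were among the most abundant messages of the cells, and in the first deposited table both were higher in all 6 combined, Flt3-ITD and Smc3 del/+ libraries than in the controls. S100a9 ranked 1 among all mouse genes in the combined, Flt3-ITD and Smc3 del/+ libraries and 2 in the controls. S100a8 ranked 2 in the same 6 libraries and 4 and 3 in the controls. Together they made up 15.3% and 18.0% of summed mouse FPKM in combined, 22.6% and 18.3% in Flt3-ITD, 13.8% and 13.1% in Smc3 del/+ and 11.2% and 10.5% in control libraries. The microRNA row Mir5133 was left out of these sums. The ERCC spike-ins made up 1.73% to 1.92% of all FPKM in control libraries. Their share was 2.70% to 2.83% in combined, 2.28% to 2.56% in Flt3-ITD and 2.38% to 2.61% in Smc3 del/+ libraries. The part of this difference in the S100 values was not tested. Libraries of c-Kit-selected marrow thus held much message of a gene pair typical of cells further along the granulocyte path. The share of such cells was not measured. In bulk RNA, fewer cells of a type and less RNA per cell cannot be told apart.

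The promoters of the calprotectin pair are shown because the genes are neighbours and their levels moved together. Each runs from 250 bases before to 50 bases after the RefSeq start on GRCm38.p6, 5′ to 3′ on the gene's strand. Capitals mark matches, on either strand, to motifs spelled TTGCNNAA (the form bound by C/EBP factors), GAGGAAG (Ets factors), TTCNNNGAA (STAT factors), TGANTCA (AP-1) and TATAAA (the TATA box). S100a8 lies at chr3:90668821-90669120 on the plus strand and S100a9 at chr3:90695672-90695971 on the minus strand.
S100a8: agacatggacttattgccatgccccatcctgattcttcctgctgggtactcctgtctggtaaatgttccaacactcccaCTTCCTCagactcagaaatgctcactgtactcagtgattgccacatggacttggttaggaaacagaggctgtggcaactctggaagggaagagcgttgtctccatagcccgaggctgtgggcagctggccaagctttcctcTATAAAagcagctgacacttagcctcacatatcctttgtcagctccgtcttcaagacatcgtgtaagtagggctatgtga
S100a9: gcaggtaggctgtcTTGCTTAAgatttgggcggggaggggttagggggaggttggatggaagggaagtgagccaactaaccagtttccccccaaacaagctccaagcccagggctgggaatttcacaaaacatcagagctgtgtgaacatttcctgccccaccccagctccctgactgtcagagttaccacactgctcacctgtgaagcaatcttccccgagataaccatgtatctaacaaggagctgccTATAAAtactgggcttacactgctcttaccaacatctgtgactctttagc
Both windows hold the letters of the TATA box. They lie 30 bases upstream of the annotated start in S100a8. In S100a9 they begin at the first base of the annotated transcript and so are not upstream of that start. S100a8 has an Ets-type match 171 bases upstream, read on the other strand as CTTCCTC. S100a9 has a C/EBP-type match 236 bases upstream of the annotated start. Over 32851 RefSeq promoters of this length, 13.6% hold the TATA box, 13.6% the Ets-type and 10.8% the C/EBP-type letters. The STAT-type letters are in 8.30% of all promoters and in none of the 7 S100 promoters at hand.

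S100a8 stood at 40504 and 54679 FPKM in combined, 69826 and 51739 in Flt3-ITD, 36378 and 34470 in Smc3 del/+ and 28041 and 25022 in control libraries. Flt3-ITD and combined libraries overlapped each other, and both Smc3 del/+ libraries lay between them and the controls. Against control, its log2 fold change was 1.18 ± 0.465 in Flt3-ITD, 0.83 ± 0.465 in combined and 0.42 ± 0.465 in Smc3 del/+ mice (SE). With limma and Benjamini-Hochberg adjustment over 10854 genes, adjusted p was 0.118 for Flt3-ITD, 0.288 for combined and 1 for Smc3 del/+, so none passed the threshold of 0.05. All fold changes here are of FPKM + 1. S100a9 had 45473 and 66250 FPKM in combined, 83428 and 56119 in Flt3-ITD, 36666 and 35332 in Smc3 del/+ and 31863 and 28224 in control libraries. Its order over the groups was that of S100a8. In the authors' normalized table the Smc3 del/+ and control libraries overlapped for both genes: S100a8 had 42149 and 32124 FPKM in Smc3 del/+ and 30002 and 35707 in control libraries, and S100a9 had 42510 and 32914 FPKM in Smc3 del/+ and 34014 and 40269 in control libraries. The Smc3 del/+ difference of S100a9 was 0.26 in the first table and 0.02 in the normalized one, and that of S100a8 was 0.42 and 0.17. For S100a9, the Flt3-ITD mice differed from controls by 1.19 ± 0.497 (SE, limma adjusted p = 0.138). The combined mice differed from controls by 0.87 ± 0.497 (SE, limma adjusted p = 0.295). In Flt3-ITD against control, the SE of S100a9 was 0.360 at a mean of at least 5 FPKM (limma adjusted p = 0.0548). With no filter on low values it was 2.74 (limma adjusted p = 0.854). For both genes the spread between the 2 Flt3-ITD mice was wide, with SDs of 12790 FPKM in Flt3-ITD against 2135 FPKM in control mice for S100a8, and of 19310 FPKM in Flt3-ITD against 2574 FPKM in control mice for S100a9 (n = 2 each).

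The ratio of S100a8 to S100a9 moved much less than either level. It was 0.891 and 0.825 in combined, 0.837 and 0.922 in Flt3-ITD, 0.992 and 0.976 in Smc3 del/+ and 0.880 and 0.887 in control libraries. Both Smc3 del/+ values lay above those of the other 6 libraries, which overlapped. The ratio is given as a description, without a test. Over the 8 libraries, log2(FPKM + 1) of the 2 genes had a Pearson r of 0.988, given as a description because the libraries share group and scaling.

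**Figure D1:**
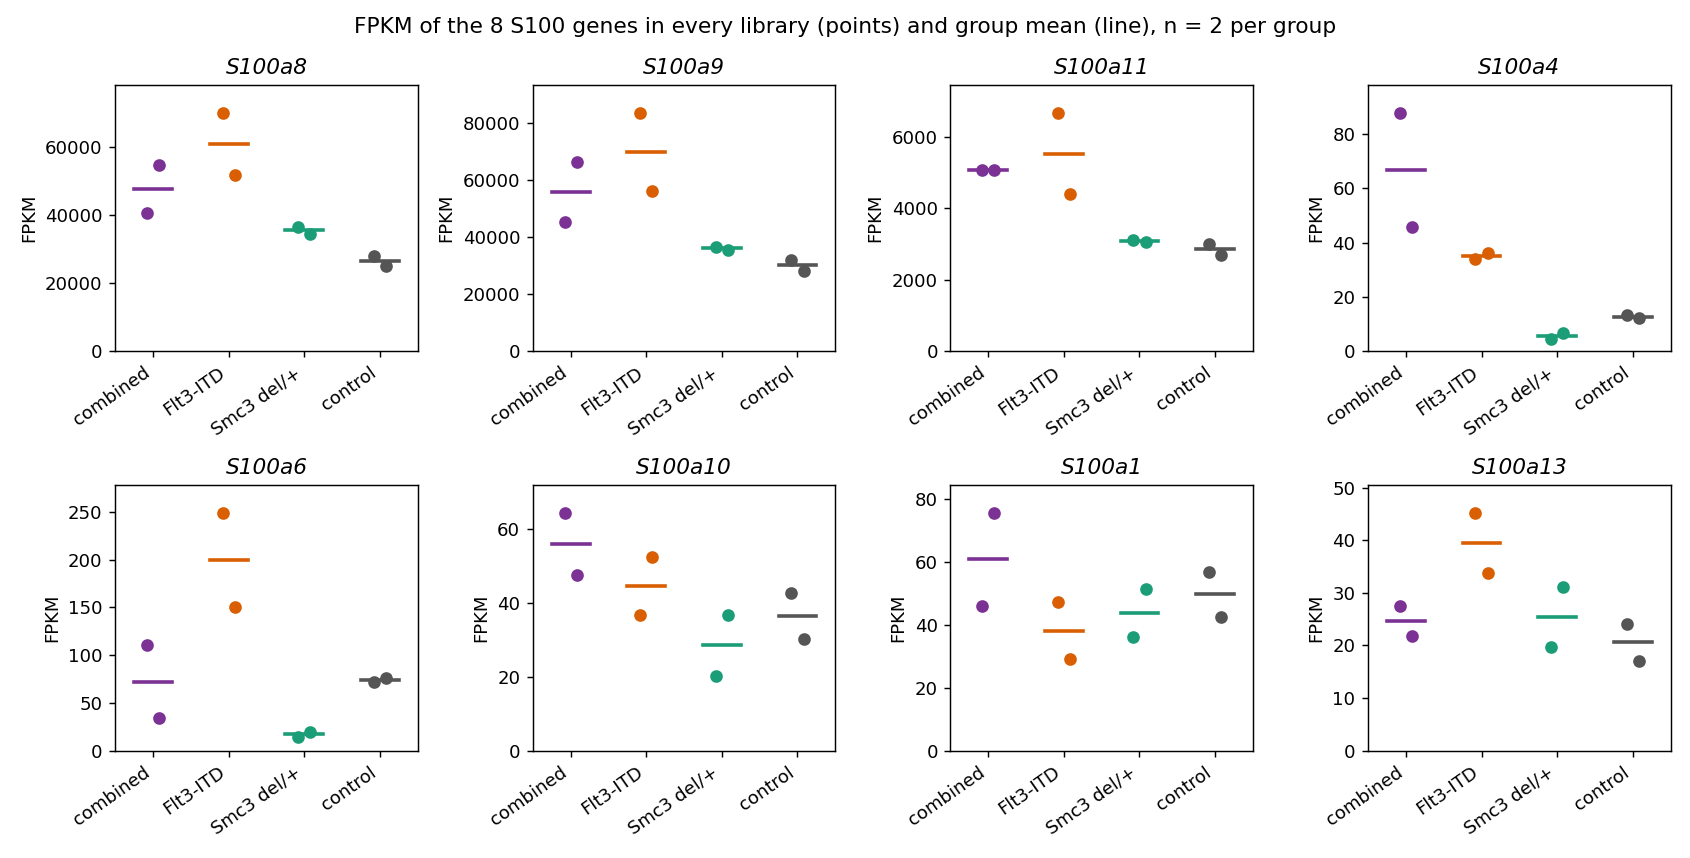
FPKM of the 8 S100 genes (y axis, linear, from 0) in combined, Flt3-ITD, Smc3 del/+ and control libraries (x axis), with a point per library and a line at the mean of 2. S100a8, S100a9 and S100a11 are lowest in the controls, S100a4 and S100a6 are lowest in Smc3 del/+, and S100a4 is highest in the 2 combined libraries.

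S100a11, which binds annexin A1 and helps to mend cell membranes, rose in Flt3-ITD mice. It had 5069 and 5082 FPKM in combined, 6654 and 4404 in Flt3-ITD, 3118 and 3061 in Smc3 del/+ and 2990 and 2703 in control libraries. The 4 Flt3-ITD carriers all lay above the 4 other libraries. Its log2 fold change in Flt3-ITD mice against controls was 0.93 ± 0.258 (SE, limma adjusted p = 0.0449), and in combined mice against controls 0.84 ± 0.258 (SE, limma adjusted p = 0.0785). The call of Flt3-ITD against control was lost without control replicate 1 or 2 (limma adjusted p = 0.199 and 0.232), without Smc3 del/+ replicate 1 or 2 (0.112 each), without Flt3-ITD replicate 1 (0.211), with no filter on low values (0.228) and in the authors' normalized table (0.147). Over both Smc3 genotypes, the 4 carriers were higher than the 4 other libraries by 0.82 ± 0.191 (SE, limma adjusted p = 0.0174), a call lost without control replicate 1 or 2 (limma adjusted p = 0.0624 and 0.0725), without Smc3 del/+ replicate 2 (0.0609), with no filter (0.15) and in the normalized table (0.0889). In Smc3 del/+ against control mice the difference was 0.12 ± 0.258 (SE, limma adjusted p = 1), and it was −0.16 in the authors' normalized table. S100a11 ranked from 6 to 15 among mouse genes over the 8 libraries. RefSeq lists a pseudogene of it, S100a11-ps, so reads of near-identical copies could have been split by the authors' counting.

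S100a4 rose in both groups with Flt3-ITD, and most in the combined mice. S100a4 binds non-muscle myosin IIA and is tied to cell movement, and S100a6, also called calcyclin, binds annexins and the calcyclin-binding protein Cacybp. S100a4 had 87.6 and 45.9 FPKM in combined, 34.0 and 36.0 in Flt3-ITD, 4.56 and 6.76 in Smc3 del/+ and 13.1 and 12.1 in control libraries. The 4 groups did not overlap, in the order combined, Flt3-ITD, control and Smc3 del/+. In combined mice it averaged 66.7 ± 29.5 FPKM, 5.29 times the 12.6 ± 0.750 FPKM of controls (SD, n = 2 each). The log2 fold change was 2.24 ± 0.296 (SE, limma adjusted p = 0.00648) for combined against control and 1.41 ± 0.296 (SE, limma adjusted p = 0.0192) for Flt3-ITD against control. Leaving out control replicate 1 or 2 gave limma adjusted p of 0.0662 and 0.0637 for combined against control, and the fit of those 2 groups alone gave 0.0697. For Flt3-ITD against control, leaving out control replicate 1 or 2 gave limma adjusted p of 0.115 and 0.116, and leaving out Flt3-ITD replicate 1 or 2 gave 0.115 and 0.0932. In the authors' normalized table the Flt3-ITD difference was 0.85 with a limma adjusted p of 0.0610, and the median of all genes there was −0.58.

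S100a4 differed in opposite directions between the libraries labelled with and without the Smc3 deletion on the 2 backgrounds. Combined mice were above Flt3-ITD mice by 0.84 ± 0.296 (SE, limma adjusted p = 0.386), and Smc3 del/+ mice were below controls, with a log2 fold change of −1.05 ± 0.296 (SE, limma adjusted p = 0.764). The test of the difference between these 2 effects gave 1.89 ± 0.418 (SE, limma unadjusted p = 0.00224, adjusted p = 0.249), short of the threshold. It is the same contrast as that of the 4 libraries high in Xist with the 4 low in it, so the deletion's dependence on background cannot be told apart from sex. Without combined replicate 1 this interaction was 1.43, and without combined replicate 2 it was 2.35, each fit leaving 1 mouse in the combined group.

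S100a6 did not share the order of groups seen for its neighbour S100a4. S100a6 had 110.6 and 33.8 FPKM in combined, 248.8 and 150.3 in Flt3-ITD, 14.6 and 19.6 in Smc3 del/+ and 72.3 and 76.6 in control libraries. Flt3-ITD mice were the highest and Smc3 del/+ mice the lowest, and the 2 combined mice fell on either side of the controls. The difference was 1.37 ± 0.494 (SE, limma adjusted p = 0.0959) in Flt3-ITD against control, −2.07 ± 0.494 (SE, limma unadjusted p = 0.00339, adjusted p = 0.735) in Smc3 del/+ against control, and −1.64 ± 0.494 (SE, limma adjusted p = 0.314) in combined against Flt3-ITD mice. In the fit of Smc3 del/+ and control libraries alone, its adjusted p was 0.0221, and without combined replicate 1 or 2 it was 0.0330 and 0.0315 by limma. Combined against Flt3-ITD was −2.48 (limma adjusted p = 0.00288) without combined replicate 1 and −0.80 (limma adjusted p = 0.297) without combined replicate 2. Combined against control was −0.28 with both, −1.12 (limma adjusted p = 0.0249) without combined replicate 1 and 0.57 (limma adjusted p = 0.168) without combined replicate 2. Over both Smc3 genotypes, S100a6 was higher with Flt3-ITD by 1.58 ± 0.337 (SE, limma adjusted p = 0.0128), although combined replicate 2 lay below both controls. The ratio of S100a6 to S100a4 was 1.26 and 0.737 in combined, 7.31 and 4.17 in Flt3-ITD, 3.20 and 2.90 in Smc3 del/+ and 5.50 and 6.34 in control libraries. Both combined values were the lowest of the 8, and both Smc3 del/+ values lay below those of Flt3-ITD and control libraries.

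The promoters of these neighbours are shown because the genes are close neighbours and the ratio of their levels differed between groups. S100a4 lies at chr3:90603520-90603819 and S100a6 at chr3:90612644-90612943, both on the plus strand of GRCm38.p6, from the same RefSeq set and with the same capitals.
S100a4: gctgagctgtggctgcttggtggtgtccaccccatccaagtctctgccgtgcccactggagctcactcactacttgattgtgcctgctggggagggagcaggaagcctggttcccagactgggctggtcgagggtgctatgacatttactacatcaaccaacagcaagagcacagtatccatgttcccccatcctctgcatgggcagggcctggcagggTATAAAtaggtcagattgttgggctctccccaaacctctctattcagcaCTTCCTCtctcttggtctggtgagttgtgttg
S100a6: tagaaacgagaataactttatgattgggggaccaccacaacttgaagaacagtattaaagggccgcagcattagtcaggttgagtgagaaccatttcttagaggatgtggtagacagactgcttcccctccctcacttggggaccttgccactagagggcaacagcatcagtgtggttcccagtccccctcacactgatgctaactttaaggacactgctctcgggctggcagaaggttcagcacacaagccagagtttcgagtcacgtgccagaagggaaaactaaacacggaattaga
S100a4 has a TATA box 31 bases upstream of its start and an Ets-type match at base 19 of the transcript, read on the other strand. S100a6 has none of the 5 motifs in this window. S100a4, S100a8 and S100a9 are the 3 of 7 S100 promoters with the TATA box letters. A match is a description of the sequence and shows no binding.

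S100a10 overlapped between most groups. It has lost the ability to bind calcium and forms a complex with annexin A2 that carries plasminogen on the cell surface. Its FPKM were 64.2 and 47.6 in combined, 36.6 and 52.3 in Flt3-ITD, 20.3 and 36.7 in Smc3 del/+ and 42.6 and 30.2 in control libraries. Both combined libraries were above both controls, and no other pair of groups that were compared was free of overlap. The log2 fold change for combined against control was 0.61 ± 0.318 (SE, limma adjusted p = 0.254), and for Flt3-ITD against control 0.28 ± 0.318 (SE, limma adjusted p = 0.586). In the authors' normalized table these values were −0.10 and −0.24, so the sign depends on the scaling.

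S100a1 and S100a13 differed in which group was highest, S100a1 by its mean in combined and S100a13 in Flt3-ITD mice. S100a1 had 46.1 and 75.4 FPKM in combined, 47.3 and 29.0 in Flt3-ITD, 36.0 and 51.4 in Smc3 del/+ and 56.8 and 42.6 in control libraries. The groups overlapped in each comparison. Flt3-ITD against control was −0.40 ± 0.321 (SE, limma adjusted p = 0.429). In the authors' normalized table it was −0.92 with a limma adjusted p of 0.0208, and −0.34 relative to the median of all genes there. S100a13 had 27.6 and 21.7 FPKM in combined, 45.1 and 33.7 in Flt3-ITD, 19.6 and 31.1 in Smc3 del/+ and 24.2 and 17.0 in control libraries. Both Flt3-ITD libraries lay above the other 6. Flt3-ITD against control was 0.91 ± 0.273 (SE, limma adjusted p = 0.0570), and combined against Flt3-ITD −0.65 ± 0.273 (SE, limma adjusted p = 0.447). The ratio of S100a13 to S100a1 was 0.598 and 0.288 in combined, 0.955 and 1.16 in Flt3-ITD, 0.546 and 0.606 in Smc3 del/+ and 0.425 and 0.400 in control libraries, highest in both Flt3-ITD mice. The 2 genes start next to each other on opposite strands and run apart, and their spans overlap by 98 bases in RefSeq. Their promoter windows of 300 bases overlap by 204 bases. Transcripts running from the starts used for these windows would not overlap each other, unlike the spans of the whole genes. The library kit was directional, but whether counting kept the strands apart is not stated in the labels or files, so reads of the 2 genes may have been mixed.

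The 8 genes were then read against all tested genes. In Flt3-ITD against control, 2 of 8 rose (S100a4 and S100a11) and none fell, beside 8.51% of all 10854 tested genes that rose. In this comparison 6 of 8 were higher with no overlap between libraries (all but S100a1 and S100a10), beside 34.3% of all genes. Their median log2 fold change was 1.06, beside −0.01 over all genes. In combined against control, 1 of 8 rose (S100a4), beside 5.41% of genes. There 5 were higher with no overlap (S100a4, S100a8, S100a9, S100a10 and S100a11), beside 25.8%, and the median was 0.72. These 2 comparisons share the control libraries. Over both Smc3 genotypes, 3 of 8 rose with Flt3-ITD (S100a4, S100a6 and S100a11), beside 10.9%, and 4 of 8 were higher with no overlap (S100a4, S100a8, S100a9 and S100a11), beside 12.1%.

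The comparisons of the Smc3 deletion gave no call among the 8. In Smc3 del/+ against control none passed by limma, beside 0.00921% of all genes that were called. An unadjusted limma p under 0.05 was found for 2 (S100a4 and S100a6), beside 494 of all 10854 tested genes. Of the 8, 3 were higher with no overlap (S100a8, S100a9 and S100a11, beside 24.2% of genes) and 2 were lower (S100a4 and S100a6, beside 23.2%). In combined against Flt3-ITD none passed by limma, beside 0.286% of genes that were called. In that comparison 3 had an unadjusted limma p under 0.05 (S100a4, S100a6 and S100a13), beside 1196 of the 10854 genes. There 1 was higher with no overlap (S100a4, beside 17.1% of genes) and 2 were lower (S100a6 and S100a13, beside 16.8%). In the test of whether the effect of the deletion differed between backgrounds, none passed by limma, beside 0.0369% of genes that were called. There 2 had an unadjusted limma p under 0.05 (S100a4 and S100a13), beside 1009 of the 10854 genes.

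**Figure D2:**
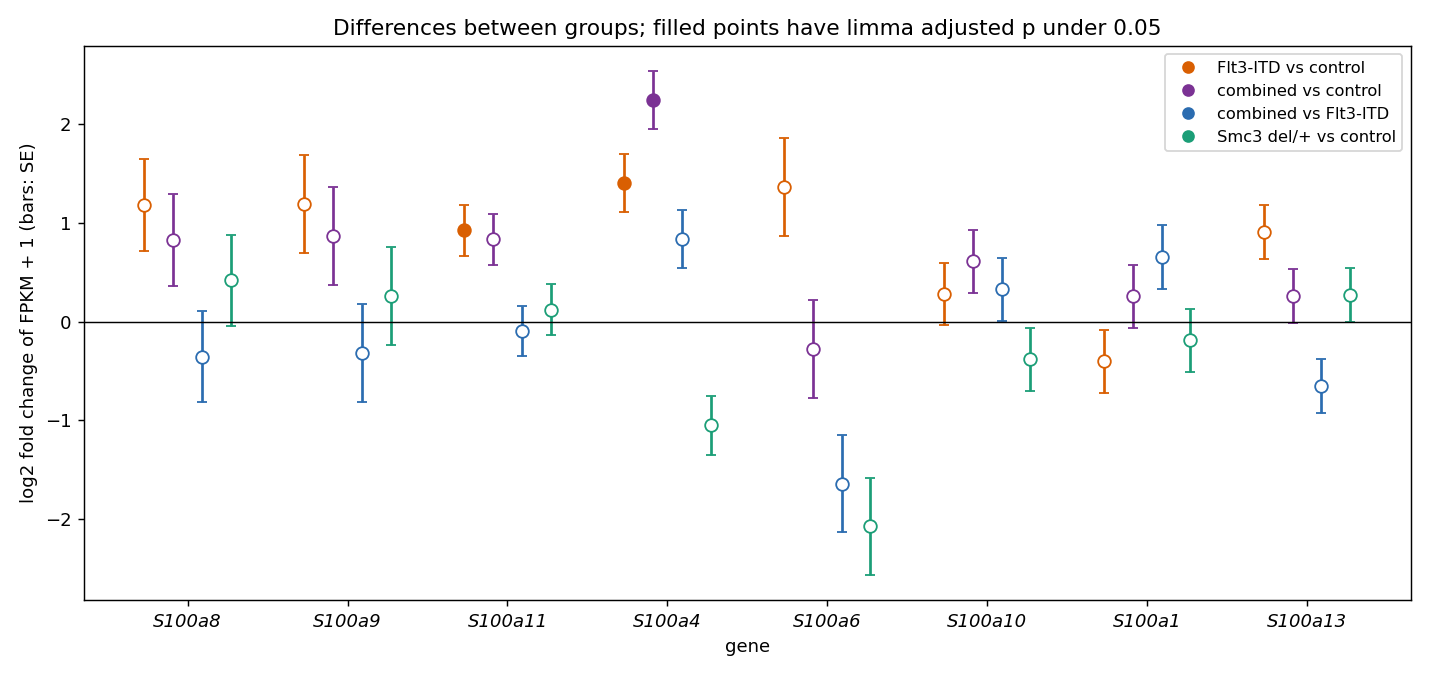
Log2 fold change of FPKM + 1 (y axis) with its standard error for the 8 S100 genes (x axis) in 4 comparisons, from limma. Filled points, with an adjusted p under 0.05, are S100a4 in Flt3-ITD and in combined against control, and S100a11 in Flt3-ITD against control, and S100a4 and S100a6 have the lowest values in Smc3 del/+ against control.

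Along chromosome 3 the RefSeq table places 14 S100 genes in the order S100a1, S100a13, S100a14, S100a16, S100a3, S100a2, S100a4, S100a5, S100a6, S100a7a, S100a8, S100a9, S100a11 and S100a10. S100a1 and S100a13 at one end and S100a8, S100a9, S100a11 and S100a10 at the other were above 1 FPKM in every library, as were S100a4 and S100a6 between them. S100a14, between S100a13 and S100a16, and S100a5, between S100a4 and S100a6, were listed at 0 in all 8 libraries, as was S100a7a, between S100a6 and S100a8. S100a2 had 1.67 FPKM in combined replicate 1 and was listed at 0 elsewhere. S100a16 was listed above 0 in the combined libraries alone, at 0.0596 and 1.43 FPKM. S100a3 reached at most 0.573 FPKM, in Flt3-ITD replicate 2. Of the family members on other chromosomes, S100g and S100z were listed at 0 in every library, and S100b had 0.0920 FPKM in Smc3 del/+ replicate 2 alone.

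**Figure D3:**
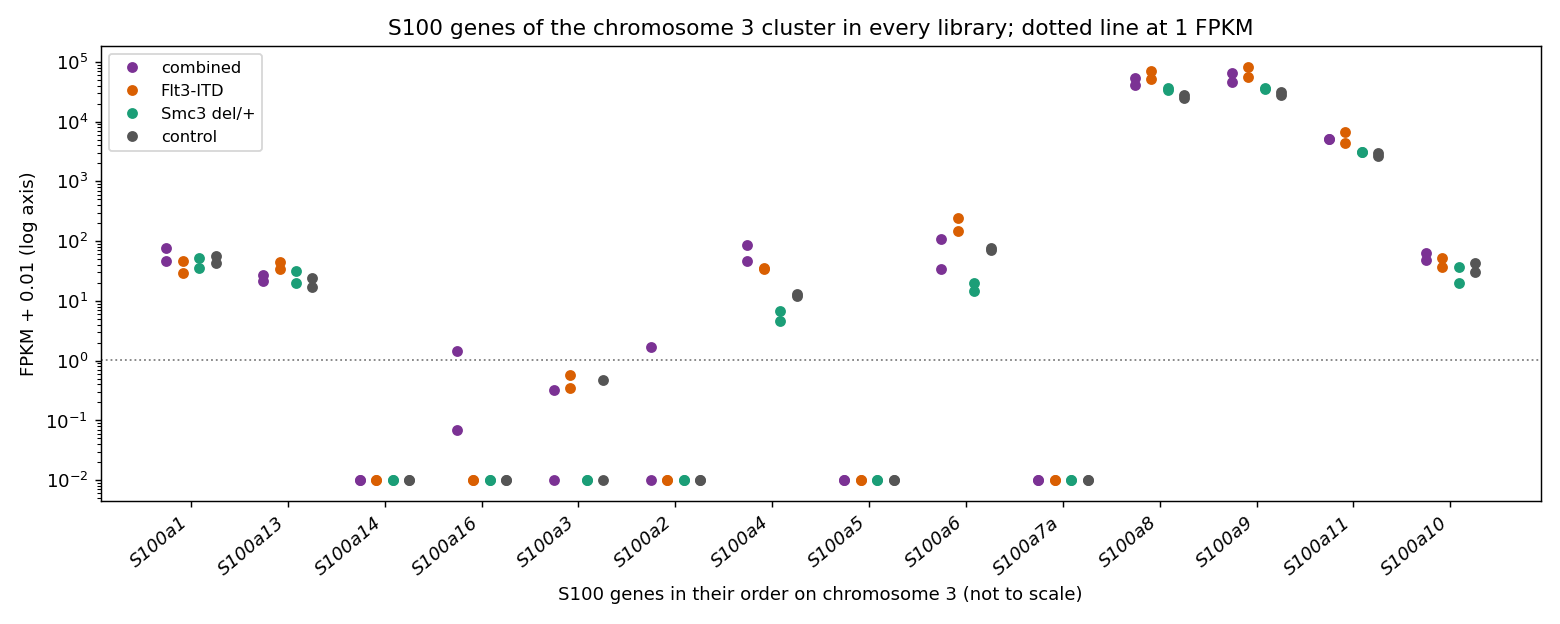
FPKM + 0.01 (y axis, log scale) of the 14 S100 genes of chromosome 3 in each of the 8 libraries (points, coloured by group), in their order along the chromosome and not to scale (x axis), with a dotted line at 1 FPKM. The 8 genes followed here lie above the line in every library, and S100a14, S100a5 and S100a7a, listed at 0, lie among them at the bottom.

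Partners and receptors of S100 proteins were read from a list of 18 genes, 15 of which passed the filter on low values. In Flt3-ITD against control 7 rose and 1 fell, with a median log2 fold change of 0.89. Of all tested genes, 8.51% rose and 9.5% fell there. In combined against control 4 rose and 1 fell, with a median of 0.49, and of all tested genes 5.41% rose and 6.38% fell. The same shares of all genes stand beside the counts of the lists that follow. Anxa1, the annexin partner of S100a11, averaged 2430 FPKM in Flt3-ITD against 988 in control mice (1.26 ± 0.237, SE, limma adjusted p = 0.0131). Anxa2, the partner of S100a10, averaged 165 FPKM in Flt3-ITD against 65.6 in control mice (1.30 ± 0.291, SE, limma adjusted p = 0.0231). Cd33, a sialic acid-binding receptor of myeloid cells that S100A9 binds in humans, averaged 247 FPKM in Flt3-ITD against 92.2 in control mice (1.42 ± 0.285, SE, limma adjusted p = 0.0166). Bsg, a surface glycoprotein and receptor of S100A9 in humans, fell to 62.8 FPKM in Flt3-ITD mice, against 94.2 in controls (−0.58 ± 0.121, SE, limma adjusted p = 0.0189). The other 4 that rose were Ly96, Anxa11, Anxa5 and Myh9, the heavy chain of the myosin that S100a4 binds. Ahnak, a giant scaffold protein bound by the complex of S100a10 and annexin A2, averaged 22.6 FPKM in combined against 4.45 in control mice (2.01 ± 0.361, SE, limma adjusted p = 0.0153). No gene of the list was called in Smc3 del/+ against control, in combined against Flt3-ITD or in the test of the difference between backgrounds.

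Transcription factors of granulocyte and monocyte genes were measured for 9 of the 10 listed. In Flt3-ITD against control 3 rose, none fell and the median was 0.75. Irf8, a factor of monocyte and dendritic cell fate, averaged 74.0 FPKM in Flt3-ITD against 27.9 in control mice (1.35 ± 0.267, SE, limma adjusted p = 0.0161). Cebpe, needed for the late steps of granulocyte maturation, averaged 75.8 FPKM in Flt3-ITD against 36.9 in control mice (1.02 ± 0.232, SE, limma adjusted p = 0.0246). Stat3, a factor that relays cytokine signals, averaged 54.0 FPKM in Flt3-ITD against 29.2 in control mice (0.86 ± 0.227, SE, limma adjusted p = 0.0380). Cebpb, at 9.18 FPKM in Flt3-ITD and 5.45 in control mice, did not pass (limma adjusted p = 0.0682). In combined against control 1 of the 9 passed, Irf8, at 101.3 FPKM in combined against 27.9 in control mice (1.78 ± 0.267, SE, limma adjusted p = 0.00901).

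Genes of other cells and stages moved in the same libraries. Of 15 measured secondary granule and mature neutrophil genes, 8 rose in Flt3-ITD against control and 6 in combined against control, with none falling and medians of 1.25 and 0.85. Those with the smallest p were Chi3l1 and Itgam (limma adjusted p = 0.00844 each), Ltf, the granule protein lactoferrin (0.0104), and Pglyrp1, a granule protein that binds bacterial wall (0.0111). Their summed level was 53300 to 59095 FPKM in combined, 55121 to 79238 in Flt3-ITD, 36157 to 37071 in Smc3 del/+ and 27554 to 28058 in control libraries. Of the 8 primary granule and progenitor genes none passed in either comparison, with a median of 0.40 in Flt3-ITD against control. Their summed level was 6101 to 6677 FPKM in combined, 6711 to 7511 in Flt3-ITD, 5864 to 6437 in Smc3 del/+ and 5159 to 5211 in control libraries. S100a8 relative to the summed secondary granule list was 0.685 and 1.03 in combined, 0.881 and 0.939 in Flt3-ITD, 0.981 and 0.953 in Smc3 del/+ and 0.999 and 0.908 in control libraries, and the groups overlapped but for Smc3 del/+ against Flt3-ITD. S100a11 relative to the same sum was 0.0858 and 0.0953 in combined, 0.0840 and 0.0799 in Flt3-ITD, 0.0841 and 0.0847 in Smc3 del/+ and 0.107 and 0.0981 in control libraries, highest in the controls. The part of these neutrophil genes in the S100 differences was not tested.

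**Figure D4:**
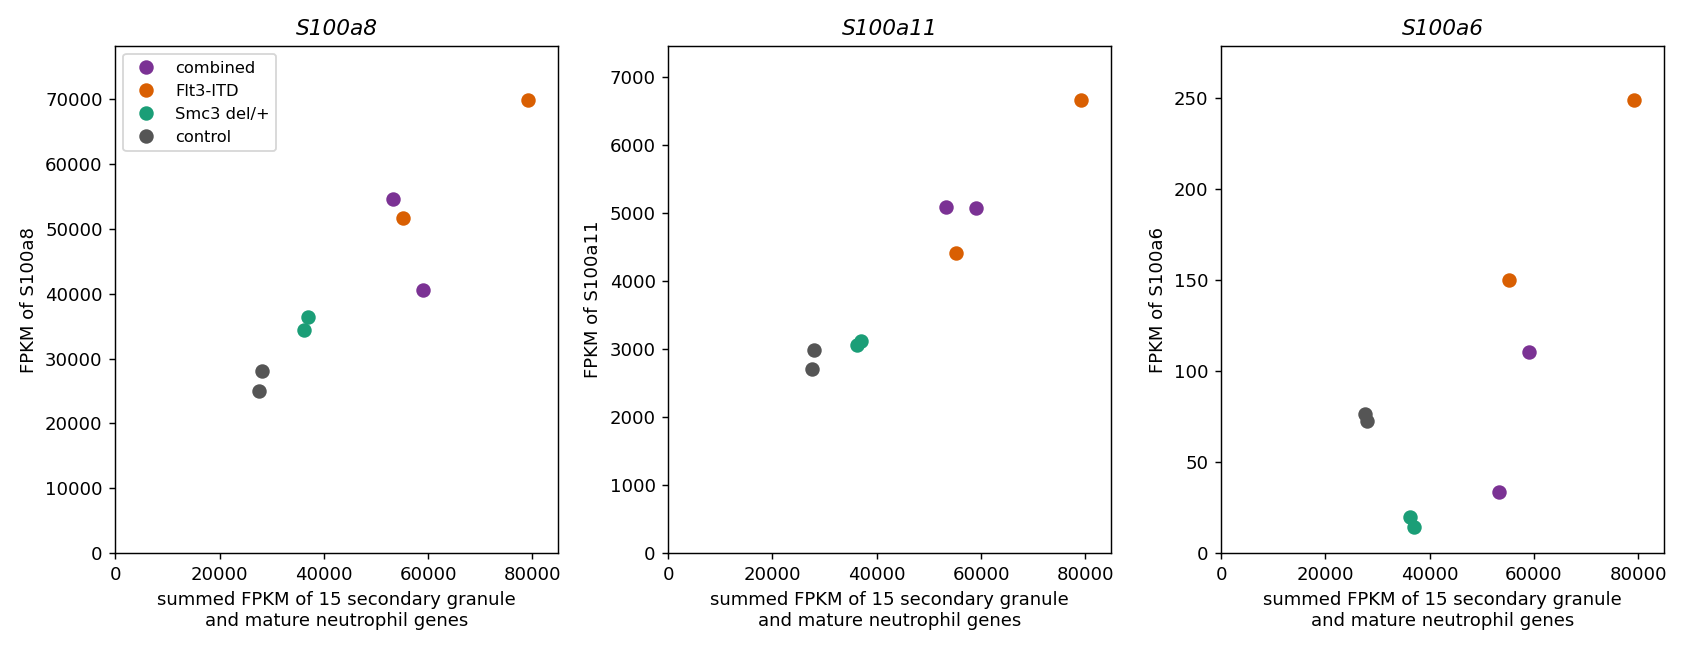
FPKM of S100a8, S100a11 and S100a6 (y axes, linear, from 0) against the summed FPKM of 15 secondary granule and mature neutrophil genes (x axis), with a point per library coloured by group. S100a8 and S100a11 are lowest in the controls, where the sum is lowest, and highest in Flt3-ITD replicate 1, where it is highest, but combined replicate 1, with the second highest sum (59095), has less S100a8 (40504 FPKM) than combined replicate 2 (54679 FPKM). S100a6 is lower in Smc3 del/+ libraries (14.6 and 19.6 FPKM) than in controls (72.3 and 76.6 FPKM), whose sum is lower.

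Of 12 monocyte and macrophage genes, 3 rose and 3 fell in Flt3-ITD against control, with a median of 0.73. Among those that rose were Ms4a6c, at 104.5 FPKM in Flt3-ITD against 41.7 in control mice (limma adjusted p = 0.0116), and Ly6c2, a marker of inflammatory monocytes also found on granulocytes, at 2751 FPKM in Flt3-ITD against 1370 in control mice (limma adjusted p = 0.0121). C1qb, a complement gene of macrophages, fell to 1.15 FPKM in Flt3-ITD mice, against 11.1 in controls (limma adjusted p = 0.00771). The summed level of the list was 2170 to 2651 FPKM in combined, 2992 to 3243 in Flt3-ITD, 1390 to 1582 in Smc3 del/+ and 1589 to 1614 in control libraries. Erythroid genes fell in Flt3-ITD mice, 10 of 11 tested, with a median of −3.67, beside 9.5% of all tested genes that fell. Their sum was 211 to 610 FPKM in combined, 83.5 to 187 in Flt3-ITD, 1763 to 1912 in Smc3 del/+ and 1959 to 2049 in control libraries, with Alas2 listed at 0 in both combined libraries. Megakaryocyte genes fell in 9 of 9, with sums of 19.7 to 68.6 FPKM in combined, 20.9 to 27.8 in Flt3-ITD, 75.3 to 84.5 in Smc3 del/+ and 211 to 215 in control libraries. B cell genes fell in 7 of 8, with sums of 7.59 to 10.3 FPKM in combined, 5.06 to 9.67 in Flt3-ITD, 32.9 to 46.8 in Smc3 del/+ and 77.3 to 203 in control libraries. Pax5 was listed at 0 in the combined and Flt3-ITD libraries, and Vpreb1 in the combined ones. Of 7 tested mast cell and basophil genes 1 rose and 3 fell, and the sum was 126 to 131 FPKM in combined, 115 to 122 in Flt3-ITD, 192 to 199 in Smc3 del/+ and 134 to 143 in control libraries, with Cma1 listed at 0 in all. The part of a shift among cell types in the S100 values was not tested.

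The genes whose pattern over the 8 libraries was most like each S100 gene were read by Pearson r of log2(FPKM + 1) among 6218 genes at a mean of 10 FPKM or more, as a description of libraries that share groups. For S100a8 these were Neu1 (r = 0.986), Camp (0.985), the gene of the neutrophil granule peptide cathelicidin, and Ptplb (0.984). For S100a9 they were Kdm4c (0.993) and Itm2b (0.987), and for S100a11 Csf2ra (0.989), the alpha chain of the GM-CSF receptor, Chfr (0.986) and Nampt (0.985). S100a4 was most like Gm2a (0.990), H2-D1 (0.978) and Unc93b1 (0.977), and S100a6 most like Rnf19b (0.967), Ceacam10 (0.961) and Lst1 (0.959). The nearest to S100a10 was Acot7 (0.986), followed by 3110002H16Rik (0.902) and Zfp263 (0.894). S100a1 was nearest to Sar1b (0.926), Scyl3 (0.925) and Tmem107 (0.912), and S100a13 to Ppp6r3 (0.957), Gpr97 (0.955) and B3gnt2 (0.933). Among the 8 themselves, S100a9 and S100a11 had r = 0.948, S100a8 and S100a11 0.922, S100a4 and S100a10 0.851, S100a4 and S100a6 0.668, S100a1 and S100a13 −0.140, and S100a6 and S100a1 −0.217.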

How the data were processed

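The authors deposited FPKM values in 2 tables of 23385 rows, with 23293 mouse genes and 92 ERCC spike-ins, each covering the 8 libraries. Cufflinks 2.0.0, TopHat and mm9 are named, per the submitters' processing notes. Annotation and strand use: not given in the sources used here. Their second table was rescaled in a way the files do not state, and served as an alternative. RNA was isolated with Trizol and libraries made with a directional kit, per the labels' protocols. FPKM hold no counts, so depth in reads is unknown. Relative depth was estimated from the step between values under 0.3 FPKM, with a tolerance of 0.02 (log2).

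The test was limma 3.58.1 (R 4.3.3, variance trend) on log2(FPKM + 1), run over the 10854 mouse genes that averaged 1 FPKM or more, all 8 S100 genes among them, which were above 1 FPKM in every library. Adjustment over all tested genes followed Benjamini and Hochberg, and calls needed an adjusted p under 0.05. Group comparisons came from 1 fit of 4 group means (4 residual degrees of freedom), and the Flt3-ITD effect over both Smc3 genotypes from an additive model (5). The scripts were tested on simulated data. For a single value of 2 mice against 2, the smallest p an exact permutation test allows is 0.333. Fold changes of FPKM + 1 understate those of low genes. Promoters and gene order come from RefSeq on GRCm38.p6, another build than mm9, and 7 of the 8 genes had a promoter entry.

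The S100 genes and the lists were chosen with earlier results of these data known. All 8 are named. From each list up to 4 tested genes of smallest p in Flt3-ITD against control could be named, and for each S100 gene the 3 most alike in r. Ahnak, Ly96, Anxa11, Anxa5 and Myh9 were named after their values were seen. Spi1 and Ly6g were not analysed here, and some genes that this rule would name are not reported here. Alternatives were a pseudocount of 0.1, no filter, a mean of at least 5 FPKM, the second table, median-of-ratios scaling, only the compared groups, a replicate block, each library left out and, chosen after seeing the data, a fit with no combined libraries.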

Additional observations from a re-analysis of the deposited data

Results flagged for a closer look

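S100a4 was singled out because libraries labelled with the Smc3 deletion differed in opposite directions from those without it on the 2 backgrounds. Both combined libraries (87.6 and 45.9 FPKM) lay above both Flt3-ITD libraries (34.0 and 36.0 FPKM), and both Smc3 del/+ libraries (4.56 and 6.76 FPKM) lay below both controls (13.1 and 12.1 FPKM). The difference between these effects was 1.89 ± 0.418 on the log2 scale (SE), with a limma adjusted p of 0.249, so it did not pass the threshold. The difference was 1.43 without combined replicate 1 and 2.35 without combined replicate 2, each fit leaving 1 mouse in the combined group. This contrast is also that of the 4 libraries high in Xist (combined and control) with the 4 low in it (Flt3-ITD and Smc3 del/+), so a difference between backgrounds cannot be told apart from sex. Of all tested genes, 17.1% were higher with no overlap in combined against Flt3-ITD. In Smc3 del/+ against control, 23.2% were lower with no overlap. The share of genes that met both was not computed, so how unusual S100a4 is in this was not tested.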

How the results depend on the processing

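Of 720 alternative values for the 8 S100 genes, 21 lost a call, 29 gained one and 670 stayed on the same side of the threshold. The main fits called 2 of the 8 in Flt3-ITD against control, 1 in combined against control and 3 over both Smc3 genotypes. Only values of these genes in these comparisons could lose a call, and most of the 720 are of others. Most of the lost calls were in Flt3-ITD against control. The sign turned in 19 of the 720, none of them called under either setting. Of these, 7 were in the authors' normalized table and 12 came from leaving out 1 library. The number of S100 genes called in Flt3-ITD against control was 2, and became 1 with no filter, 1 in the authors' normalized table (S100a1, lower), 1 with a replicate block (S100a4, while S100a11 had a limma adjusted p of 0.0634), 4 in the fit of only the compared groups and 6 in the fit with no combined libraries, an alternative chosen after seeing the data. At a mean of at least 5 FPKM the number was 3, with S100a8 also called. Leaving out 1 library moved this number and the count over all genes in the same direction. Both fell when a control, Smc3 del/+ or Flt3-ITD library was left out. No S100 call remained without either control or Flt3-ITD replicate 1. Both rose without either combined library, where S100a6, S100a8, S100a9 and S100a13 were also called. For Smc3 del/+ against control the number was 0, and 1 (S100a6) in the fit of only the compared groups and in that with no combined libraries, with 0 to 1 when leaving out 1 library. Combined against Flt3-ITD had 0, with 0 to 2 when leaving out 1 library (S100a6, and S100a1 at an adjusted p of 0.0485, without combined replicate 1, and S100a4 without combined replicate 2). Combined against control had 1, 0 in the fit of only the compared groups and 0 to 3 when leaving out 1 library. The interaction had 0, with 0 to 1 when leaving out 1 library. Over both Smc3 genotypes, Flt3-ITD had 3, and 2 to 4 under all alternatives. Smc3 itself, slightly higher in combined than in control mice, was lower in the normalized table (−0.65, limma adjusted p = 0.0120). The median of all genes there was −0.67, so Smc3 was not lower relative to it.

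Counts over all genes moved too. Flt3-ITD against control called 1955 genes, against 4783 in the normalized table, 3603 with only the compared groups, 4231 with no combined libraries and 243 to 4235 when leaving out 1 library. Smc3 del/+ against control called 1, against 3 with a pseudocount of 0.1, 3 with no filter, 12 in the normalized table, 22 with only the compared groups, 12 with no combined libraries and 1 to 12 when leaving out 1 library. Combined against Flt3-ITD called 31, against 5 with that pseudocount, 9 with no filter, 17 at a mean of at least 5 FPKM, 2 with only the compared groups, 3 with a replicate block and 3 to 3248 when leaving out 1 library. Combined against control called 1279, against 5916 in the normalized table, 41 with only the compared groups and 83 to 3427 when leaving out 1 library. The interaction called 4, against 2 with no filter, 19 in the normalized table and 4 to 2036 when leaving out 1 library, and the Flt3-ITD effect over both genotypes 2581, against 5012 and 1208 to 4703. In the normalized table the median of all genes moved to −0.58 in Flt3-ITD against control, −0.38 in Smc3 del/+ against control, −0.11 in combined against Flt3-ITD, −0.67 in combined against control, 0.27 in the interaction and −0.44 over both genotypes, and the genes called higher and lower were 107 and 4676 in Flt3-ITD against control (924 and 1031 in the first table) and 121 and 5795 in combined against control (587 and 692). Relative to these medians S100a8 was 1.33 and S100a4 1.43 in Flt3-ITD against control. The causes were not tested. The replicate numbers did not pair the mice: deviations of same-numbered mice correlated at −0.113 to 0.0229 between groups. Where leaving out a library left 1 mouse in a group, that mouse was assumed to vary like the others.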
